A study of Homo sapiens with 4 samples.

Results

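Histone lysine methyltransferases and demethylases are the enzymes that add methyl groups to, or take them from, lysines of the histone tails. They were examined as 1 gene family in SKOV-3, an established human ovarian cancer cell line, given RAME or its solvent DMSO. The family was taken by name from the deposited table, as every row whose symbol starts with KDM, KMT or SETD and a digit, or is EHMT1, EHMT2, EZH1 or EZH2, leaving out KDM3A and KDM5D. It comprised 44 of the 25737 rows, or 38 symbols, of which 36 are protein-coding genes and 2 are antisense RNAs (KDM4A-AS1 and KMT2E-AS1). EHMT2 is listed in 7 rows, 6 of them with no read.

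The data are 4 RNA-sequencing libraries. In 2 of them the cells had received DMSO, and in the other 2 rosmarinic acid methyl ester (RAME, an ester of a plant phenol) at 40 µM for 24 h. All cells were grown in the same serum-containing medium. Each group is 1 cell line at 1 dose and 1 time, and the labels leave out whether both libraries of a group are from cultures grown apart, so a p-value here reflects the spread of these libraries alone, which may be technical. The libraries were made from the 3′ ends of polyadenylated RNA, a method meant to make the number of reads follow the number of transcripts and not their length. The libraries held 2306379 and 2543566 gene-assigned reads with DMSO, and 1441575 and 1777782 with RAME. The labelled cell type was checked against 11 epithelial and ovarian carcinoma markers. Of these, 5 had no read in any library (KRT7, KRT19, EPCAM, ERBB2 and MUC1), and the 11 together summed to 8.65 to 9.97 CPM (read counts scaled to the size of the library) with DMSO and to 7.87 to 18 with RAME, most of it from PAX8. Markers of fibroblasts summed to 22.5 to 26.3 CPM with DMSO and 13.2 to 16.9 with RAME, led by COL1A2, with LUM at 0. The 5 leukocyte markers summed to 0 and 0.39 CPM with DMSO and to 1.39 and 1.69 with RAME, from CD14 and LYZ. Of the 3 endothelial markers only VWF had a read, 1 in DMSO replicate 1. PTPRC, CD3E, PECAM1 and CDH5 had no read. The 3 erythroid markers summed to at most 4.16 CPM, and the part of any of these in the results was not tested. The keratin and ERBB2 values go against the label, and the cells are called SKOV-3 here because the labels do so. The row of the pseudogene ACTG1P20 had 5625 and 3233 reads with DMSO and 619 and 1759 with RAME. The row of ACTG1 had 63 and 96 with DMSO and 99 and 106 with RAME. Whether reads of the marker genes were counted in other rows was not tested.

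As background, methyl groups on histone lysines do not change the charge of the histone but are read by other proteins. Methylation of H3K4 (lysine 4 of histone H3) marks promoters and enhancers in use, H3K36 methylation marks transcribed gene bodies, and methylation of H3K9 and H3K27 marks silenced chromatin. The methyltransferases use S-adenosylmethionine and most share a catalytic SET domain. The KDM1 demethylases use flavin, and the others use iron and 2-oxoglutarate through a JmjC domain. Many cancers carry mutations in these genes, among them KMT2C, KMT2D and KDM6A.

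The family was a small and steady part of the reads. It took 0.258% of the reads in both DMSO libraries, against 0.244% and 0.254% under RAME. Of the 44 rows, 27 had enough reads to be tested, 3 had too few, and 14 had no read. The plot of levels by library shows the 27. SETD5, a SET-domain gene whose enzymatic activity is disputed, had the most reads, with 678 and 975 in DMSO and 462 and 703 in RAME. Its log2 fold change of RAME over DMSO (log2FC) was 0.17 (SE 0.30, edgeR adjusted p = 0.739, where SE is the standard error), its groups overlapped, and without DMSO replicate 1 the value was −0.011. KDM2B had the fewest of the tested genes, with 4 and 14 reads against 13 and 4.

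**Figure D1:**
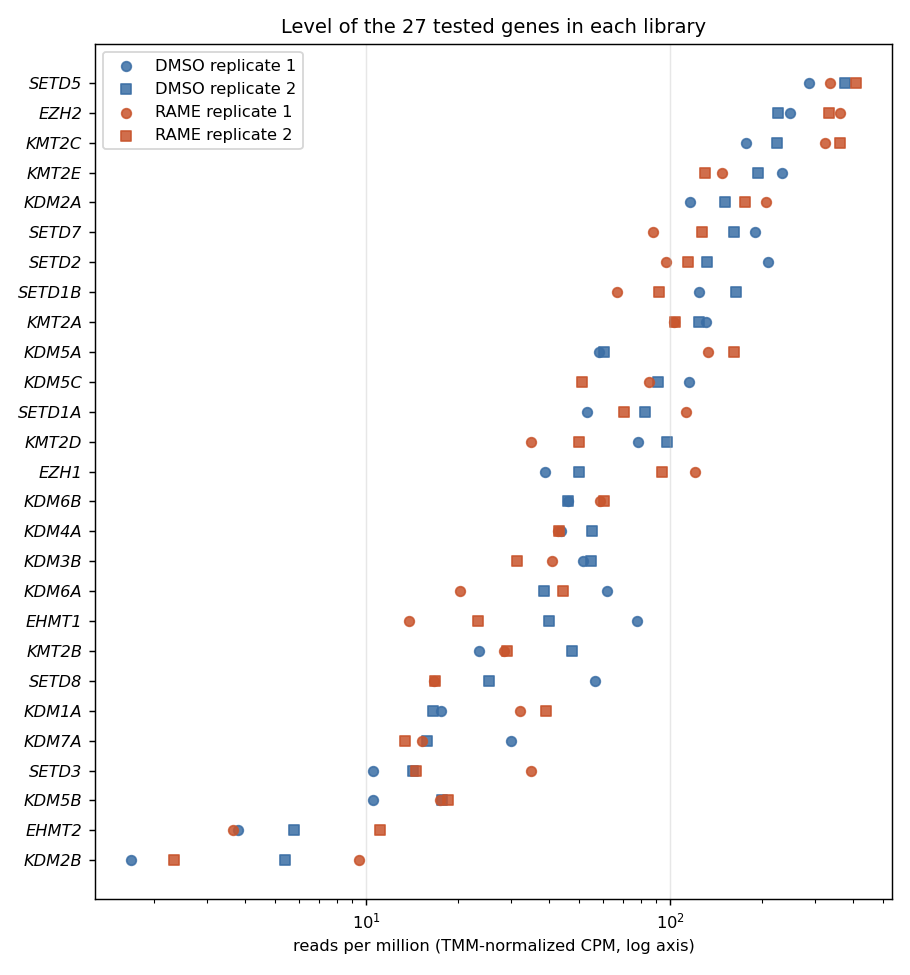
Level of each of the 27 tested genes (TMM-normalized CPM, logarithmic x axis) in the 2 DMSO libraries (blue) and the 2 RAME libraries (orange), with circles for replicate 1, squares for replicate 2 and genes ordered by total reads. The RAME points of KDM5A and EZH1 lie to the right of their DMSO points, those of EHMT1 and KMT2D to the left, and those of SETD5 overlap.

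With RAME, KDM5A and EZH1 rose and EHMT1 fell, and no other gene of the family passed the test. Over all 4517 genes tested by edgeR, 13.5% passed an adjusted p under 0.05, with 6.46% higher and 7.08% lower. In the family 3 of 27 passed, or 11.1%, with 2 higher and 1 lower, which is near that background and so is no result about the family as a whole. At an unadjusted p under 0.05 there were 9 of the 27 (33.3%), against 31.3% of all tested genes. The median log2FC was −0.21 in the family and 0.01 over all tested genes, with interquartile ranges from −0.65 to 0.59 and from −0.63 to 0.63. Values below 0 were found for 14 of the 27 (51.9%) and for 49.8% of all tested genes. Changes of more than 2-fold were seen for 6 of the 27 (22.2%) and for 30% of all tested genes. The family median was 0.29 without DMSO replicate 2 and −0.10 with upper quartile scaling, so its sign was not fixed. The plot of all changes shows the family genes inside the bulk of the distribution.

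**Figure D2:**
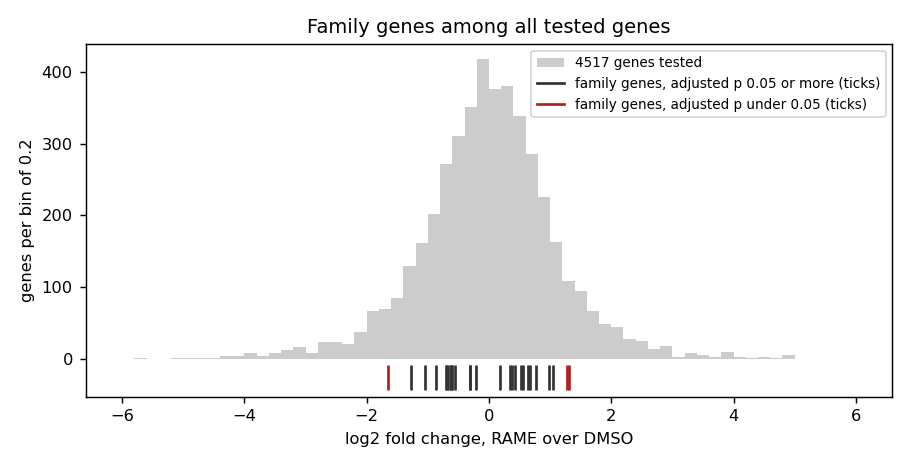
Histogram of the log2 fold changes (log2FC) (RAME over DMSO, bins of 0.2) of all 4517 genes tested, with the 27 family genes as ticks below it, red where the adjusted p was under 0.05. The family ticks run from −1.65 to 1.31, within the bulk of all genes.

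KDM5A, a JmjC demethylase of methylated H3K4, had 139 and 157 reads under DMSO and 183 and 279 under RAME, although the RAME libraries were smaller. Scaled to library size these were 58.4 and 60.4 CPM against 133 and 162, or 59.4 ± 1.41 and 148 ± 20.8 (SD, n = 2 each). Both RAME libraries lay above both DMSO libraries, and the DMSO libraries were close together. The log2FC was 1.31 (SE 0.31, edgeR adjusted p = 0.0219), a 2.48-fold rise. It stayed between 1.16 and 1.45 when any 1 library was left out, but the call was lost without DMSO replicate 1 (edgeR adjusted p = 0.0679) and without RAME replicate 2 (0.0832).

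EZH1, the less active of the catalytic subunits of Polycomb repressive complex 2, which methylates H3K27, had 92 and 130 reads under DMSO and 166 and 162 under RAME. These were 38.7 and 50 CPM against 121 and 94.2, or 44.3 ± 8.03 and 107 ± 18.6 (SD, n = 2 each). The groups did not overlap, and the lower RAME library was well above the higher DMSO library. The log2FC was 1.27 (SE 0.34, edgeR adjusted p = 0.0323). The call was lost without DMSO replicate 1 (log2FC 1.10, edgeR adjusted p = 0.116) and without RAME replicate 1 (1.09, adjusted p = 0.21).

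EHMT1, which encodes GLP, a methyltransferase of H3K9, was the gene that fell. It had 185 and 104 reads under DMSO and 19 and 40 under RAME, or 77.8 and 40 CPM against 13.8 and 23.3. The means were 58.9 ± 26.7 and 18.5 ± 6.69 CPM (SD, n = 2 each). The groups did not overlap, but DMSO replicate 1 was nearly double DMSO replicate 2 (a ratio of 1.94). The log2FC was −1.65 (SE 0.47, edgeR adjusted p = 0.0409). It was −1.10 without DMSO replicate 1 (edgeR adjusted p = 0.234) and −1.34 without RAME replicate 1 (adjusted p = 0.193), and limma-voom did not call it (adjusted p = 0.0659). EHMT2, which encodes its partner G9a, had 9 and 15 reads against 5 and 19 and a log2FC of 0.64 (SE 0.72), with overlapping groups. That value was −0.39 without RAME replicate 2.

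The promoters of the 3 genes that passed are shown because they moved in opposite directions, together with those of KMT2C and KMT2D, a related pair described next. Each window runs from 250 bases before to 50 after a gene's start and is taken from RefSeq on GRCh38.p14, a later build than the hg19 that the reads were aligned to. Capitals mark the GC box GGGCGG and the E-box CACGTG on either strand, which do not overlap each other.
KDM5A (chr12:389271-389570, - strand): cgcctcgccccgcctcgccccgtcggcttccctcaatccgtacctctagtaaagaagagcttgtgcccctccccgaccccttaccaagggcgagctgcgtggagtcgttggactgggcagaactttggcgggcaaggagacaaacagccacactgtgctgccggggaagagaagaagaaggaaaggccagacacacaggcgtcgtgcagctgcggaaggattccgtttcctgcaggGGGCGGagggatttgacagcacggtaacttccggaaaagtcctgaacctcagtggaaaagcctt
EZH1 (chr17:42744991-42745290, - strand): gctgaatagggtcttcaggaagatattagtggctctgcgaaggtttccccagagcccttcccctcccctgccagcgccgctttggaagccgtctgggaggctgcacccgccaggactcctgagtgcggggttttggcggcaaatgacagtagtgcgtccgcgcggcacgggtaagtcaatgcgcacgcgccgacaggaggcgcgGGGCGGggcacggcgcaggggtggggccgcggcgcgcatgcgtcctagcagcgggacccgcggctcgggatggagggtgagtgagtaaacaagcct
EHMT1 (chr9:137618755-137619054, + strand): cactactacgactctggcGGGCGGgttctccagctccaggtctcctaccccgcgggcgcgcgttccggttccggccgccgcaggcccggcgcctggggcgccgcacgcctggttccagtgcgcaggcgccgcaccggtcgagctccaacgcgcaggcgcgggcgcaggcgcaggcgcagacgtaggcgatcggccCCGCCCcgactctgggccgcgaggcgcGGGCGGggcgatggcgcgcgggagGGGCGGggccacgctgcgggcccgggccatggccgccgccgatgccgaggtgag
KMT2C (chr7:152435954-152436253, - strand): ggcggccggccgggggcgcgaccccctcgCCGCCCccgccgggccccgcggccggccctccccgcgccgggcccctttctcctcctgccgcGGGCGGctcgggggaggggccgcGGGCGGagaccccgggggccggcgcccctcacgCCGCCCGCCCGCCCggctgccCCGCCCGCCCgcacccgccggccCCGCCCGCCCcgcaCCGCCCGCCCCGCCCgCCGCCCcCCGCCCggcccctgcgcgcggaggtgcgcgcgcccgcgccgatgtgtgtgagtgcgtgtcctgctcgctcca
KMT2D (chr12:49060745-49061044, - strand): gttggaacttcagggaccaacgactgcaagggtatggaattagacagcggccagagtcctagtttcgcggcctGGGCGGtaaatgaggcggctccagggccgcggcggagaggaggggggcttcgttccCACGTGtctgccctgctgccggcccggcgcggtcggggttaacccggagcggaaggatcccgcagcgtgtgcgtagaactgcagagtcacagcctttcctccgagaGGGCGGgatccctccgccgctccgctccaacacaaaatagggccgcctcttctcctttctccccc
The GC box was found 1 time each in the windows of KDM5A and EZH1, 4 times in that of EHMT1, 15 times, some overlapping, in that of KMT2C and 2 times in that of KMT2D. It was present in windows of genes that rose and of the gene that fell. Of the 27 tested genes 26 were matched to a promoter, SETD8 under its present symbol KMT5A, with 33 windows in all. The GC box was in 27 of these windows (81.8%), against 66.8% of 5337 windows of all tested genes and 45% of all 35116 windows. The windows of the family were also rich in G and C, with a median of 67.7% against 65% for tested genes. The E-box was in 3 windows (EHMT2, KDM6A and KMT2D), or 9.09% against 9.46% of the windows of tested genes. CCAAT was in 30.3% against 35.1%, and CCACG in 48.5% against 47%. ACGTG, which CACGTG contains, was in 18.2% against 26.2%, and TTTGAA in 3.03% against 10.6%. TGAGTCA was in 3.03% against 3.75%, TTTGCAT in 6.06% against 3.04%, and TGACGTCA in none against 3%. A match is a description of the letters and not a bound site.

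The methyltransferase genes of H3K4 had values on both sides of those in DMSO, and none of them passed the test. Their sum, which includes KMT2C, overlapped between the groups. KMT2C, whose product with that of KMT2D places H3K4 methylation at enhancers, had 422 and 584 reads under DMSO and 445 and 621 under RAME, or 177 and 225 CPM against 323 and 361. Both RAME libraries were above both DMSO libraries, and the log2FC was 0.77 (SE 0.30, edgeR adjusted p = 0.107), which did not pass. RefSeq lists pseudogenes of KMT2C that can share its reads, so its value is uncertain. KMT2D had 187 and 253 reads against 48 and 86, or 78.6 and 97.4 CPM against 34.9 and 50. Here both RAME libraries were below both DMSO libraries, and the log2FC was −1.05 (SE 0.36, edgeR adjusted p = 0.0702). Within each library there were 2.26 and 2.31 reads of KMT2C per read of KMT2D in DMSO and 9.27 and 7.22 in RAME. This ratio does not depend on how libraries are scaled. Both RAME values were above both DMSO values, by more than the RAME libraries differed from each other. The pair was set after the values had been seen, and the groups did not overlap in 60.7% of all pairs of tested genes.

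SETD1B, a catalytic subunit of the SET1 complexes that place most H3K4 trimethylation, had 296 and 428 reads against 92 and 158 (log2FC −0.86, SE 0.33, edgeR adjusted p = 0.101). Both RAME libraries were below both DMSO libraries, at 66.8 and 91.9 CPM against 124 and 165. Its paralog SETD1A had 127 and 215 reads against 155 and 121, with overlapping groups (log2FC 0.42, SE 0.37), and the value was 0.14 without DMSO replicate 1 and 0.05 without RAME replicate 1. KMT2A, the gene rearranged in mixed lineage leukaemia, had 313 and 322 reads against 142 and 178, or 132 and 124 CPM against 103 and 104 (log2FC −0.31, SE 0.30, edgeR adjusted p = 0.53). KMT2B had 56 and 123 reads against 39 and 50, with overlapping groups and a log2FC of −0.31 that was 0.29 without DMSO replicate 2. These 6 genes summed to 589 and 741 CPM in DMSO and 669 and 706 in RAME. Their summed level thus differed by less than the gap between the DMSO libraries. KMT2C, whose value is uncertain, gave 177 and 225 CPM of this sum in DMSO and 323 and 361 in RAME. The sum without KMT2C was not taken, so a level sum does not describe the other genes.

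Of the remaining SET genes, KMT2E, SETD2 and SETD7 had lower levels in each RAME library than in each DMSO library but did not pass the test. KMT2E, a SET-domain protein with little shown activity on histones, had 554 and 506 reads against 204 and 224, or 233 and 195 CPM against 148 and 130 (log2FC −0.62, SE 0.30, edgeR adjusted p = 0.19). SETD2, the enzyme that adds the last methyl group to H3K36, had 499 and 344 reads against 133 and 197, or 210 and 132 CPM against 96.6 and 115 (−0.69, SE 0.33, edgeR adjusted p = 0.181). Without DMSO replicate 1 its log2FC was −0.32. SETD7, which methylates H3K4 and many other proteins, had 452 and 420 reads against 121 and 218, or 190 and 162 CPM against 87.9 and 127 (−0.71, SE 0.32, edgeR adjusted p = 0.156). In none of the 3 did the groups overlap. SETD8, which adds 1 methyl group to lysine 20 of histone H4 and is also named KMT5A, had 134 and 66 reads against 23 and 29 and a log2FC of −1.28 (SE 0.50, edgeR adjusted p = 0.106). DMSO replicate 1 stood apart at 56.3 CPM against 25.4 in DMSO replicate 2, and the log2FC was −0.60 without DMSO replicate 1 and −1.74 without DMSO replicate 2, where it passed (adjusted p = 0.0142). KMT5A too has pseudogenes in RefSeq. SETD3, whose product methylates a histidine of actin, had 25 and 37 reads against 48 and 25 (log2FC 0.98, SE 0.55). Leaving out RAME replicate 1 lowered the log2FC to 0.23, and leaving out RAME replicate 2 raised it to 1.49.

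EZH2, the main catalytic subunit of Polycomb repressive complex 2, had 590 and 588 reads against 499 and 573, or 248 and 226 CPM against 362 and 333. Both RAME libraries were above both DMSO libraries, but the log2FC of 0.55 (SE 0.29, edgeR adjusted p = 0.216) did not pass. There were 0.156 and 0.221 reads of EZH1 per read of EZH2 in DMSO and 0.333 and 0.283 in RAME. EZH1 and EZH2 together summed to 287 and 276 CPM in DMSO and 483 and 428 in RAME, 1.62-fold more by the means. The summed level of the H3K27 demethylase genes overlapped between the groups. KDM6A, on the X chromosome, had 147 and 100 reads against 28 and 76 (log2FC −0.62, SE 0.46), with overlapping groups. Without 1 library the value lay between −1.30 (without RAME replicate 2) and −0.18 (without RAME replicate 1), and it was −0.24 without DMSO replicate 1. KDM6B, which is known as an inducible gene of inflammation, had 110 and 120 reads against 81 and 104 (0.37, SE 0.35). Together they summed to 108 and 84.7 CPM in DMSO and 79.2 and 105 in RAME.

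**Figure D3:**
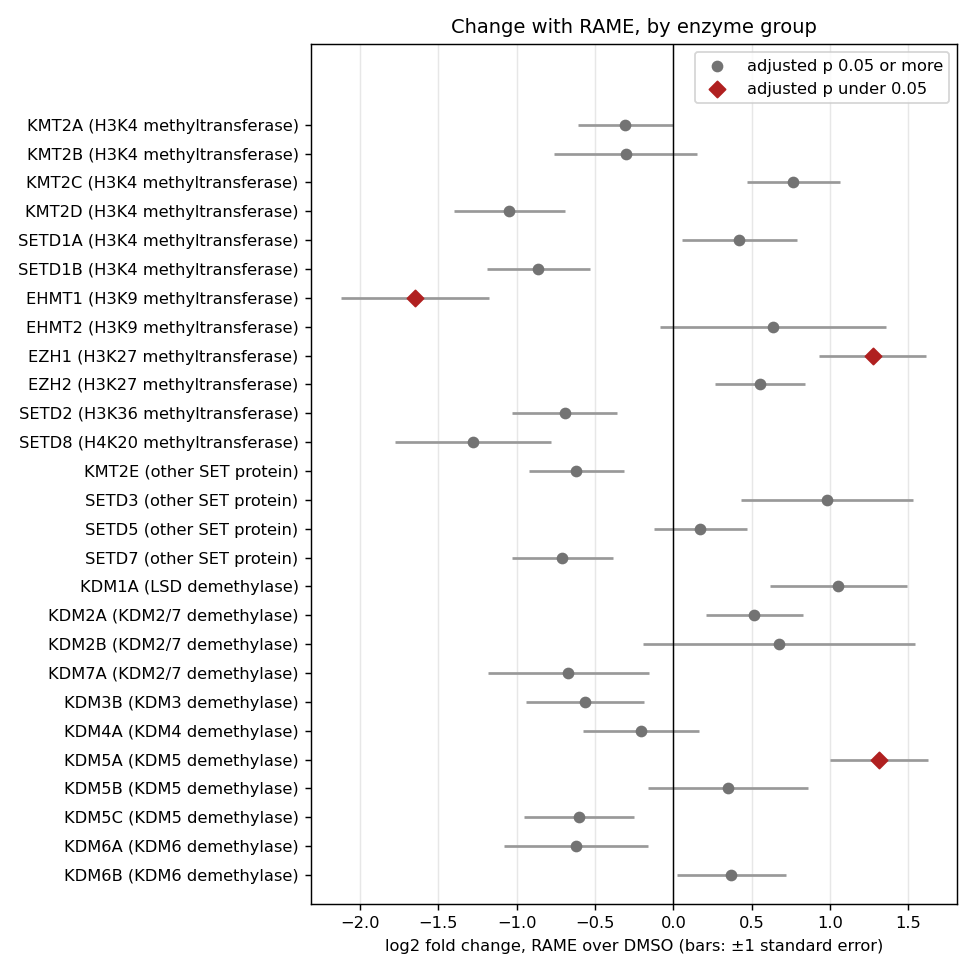
Log2FC of RAME over DMSO (edgeR, bars of 1 standard error) for the 27 tested genes by enzyme group, with red diamonds where the adjusted p was under 0.05. KDM5A at 1.31, EZH1 at 1.27 and EHMT1 at −1.65 passed, and values above and below 0 occur within most groups of more than 1 gene.

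Among the demethylases, the H3K4 enzymes KDM5A and KDM5C lay on opposite sides of their DMSO levels. KDM5C, which is X-linked and mutated in intellectual disability, had 275 and 236 reads against 117 and 88, or 116 and 90.8 CPM against 85 and 51.2 (log2FC −0.60, SE 0.35, edgeR adjusted p = 0.272). With RAME replicate 1 left out the log2FC was −1.01, and with RAME replicate 2 left out it was −0.28. There were 0.505 and 0.665 reads of KDM5A per read of KDM5C in DMSO and 1.56 and 3.17 in RAME. KDM5C thus had the more reads in both DMSO libraries and KDM5A in both RAME libraries. Which transcript was the more abundant was not tested. KDM5B had 25 and 46 reads against 24 and 32, with overlapping groups (0.35, SE 0.51, and 0.03 without DMSO replicate 1). KDM1A, which encodes LSD1, a flavin-dependent demethylase of H3K4, had 42 and 43 reads against 44 and 67. These were 17.7 and 16.5 CPM against 32 and 39, with a log2FC of 1.05 (SE 0.44, edgeR adjusted p = 0.128) that did not pass.

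The remaining demethylases did not pass either. KDM2A, a CpG island-binding demethylase of H3K36, was the demethylase gene with the most reads, 276 and 394 against 285 and 303, or 116 and 152 CPM against 207 and 176 (log2FC 0.52, SE 0.31, edgeR adjusted p = 0.286). KDM2B, its paralog, had a log2FC of 0.67 (SE 0.87) that was −0.60 without RAME replicate 1. KDM3B, a demethylase of H3K9, had 123 and 142 reads against 56 and 54 (−0.56, SE 0.38). KDM4A, which acts on trimethylated H3K9 and H3K36, had 104 and 144 reads against 59 and 74 (−0.21, SE 0.37). KDM7A had 71 and 41 reads against 21 and 23 (−0.67, SE 0.51), and the value was −0.14 without DMSO replicate 1 and −1.06 without DMSO replicate 2. Both RAME libraries were below both DMSO libraries in the last 3 genes, by less than 1 CPM for KDM4A and KDM7A.

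The summed level of the 17 demethylase genes was 554 and 554 CPM in DMSO and 662 and 643 in RAME, while that of the 19 methyltransferase and SET genes was 1943 and 1967 against 1889 and 1980. The demethylase sums of the groups did not overlap, though 2 against 2 libraries cannot give a two-sided exact permutation p under 0.333. Without KDM5A the demethylase sums were 495 and 494 CPM against 529 and 480, and the groups overlapped. The separation of the demethylase sums thus rested on KDM5A. In bulk RNA, fewer cells with a transcript and less transcript per cell cannot be told apart.

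**Figure D4:**
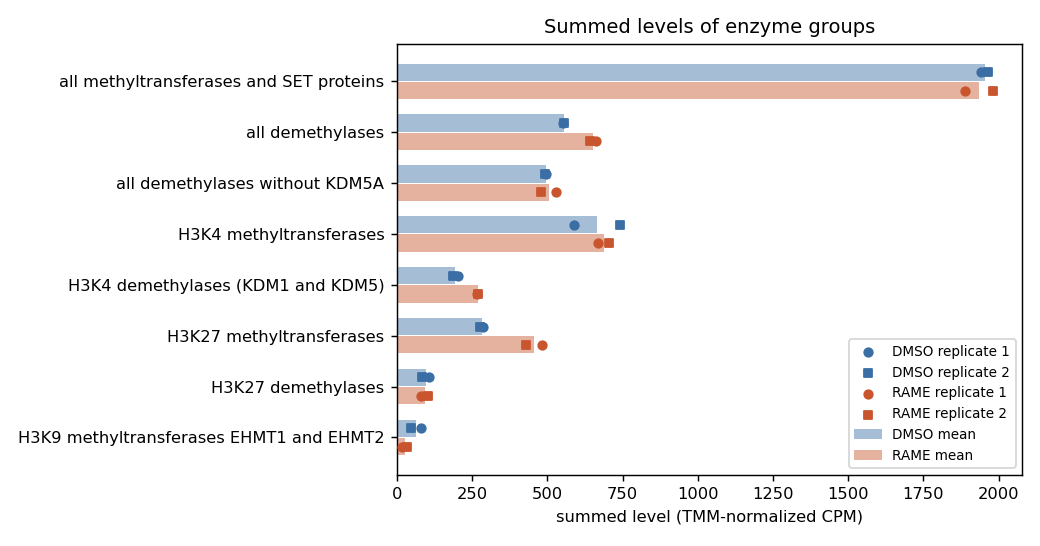
Summed level (TMM-normalized CPM, axis from 0) of enzyme groups, with bars for the group means and points for single libraries (blue DMSO, orange RAME). The 2 H3K27 methyltransferases are higher in both RAME libraries, and the demethylase difference is not seen without KDM5A. The sums of the 6 H3K4 methyltransferases, with KMT2C included, overlap.

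Ratios between related genes, taken within each library, were compared for 10 pairs. The pairs were set by family but after the values had been seen, and the 3 KDM5 pairs share genes. The groups did not overlap in 8 of 10 pairs (80%), against 60.7% of all pairs of tested genes, and an exact permutation test cannot give a p under 0.333 for any of them. For single genes the groups did not overlap in 20 of 27 (74.1%), against 60.7% of all tested genes. RAME was above in 8 of the 27, against 31.2% of all tested genes, and below in 12 of the 27, against 29.5% of all tested genes. The largest shifts of the pair ratios were 4.22-fold for EHMT2 over EHMT1, 3.84-fold for KDM5A over KDM5C, and 3.58-fold for KMT2C over KMT2D. The first rests on few EHMT2 reads, and 6 of the 7 rows of EHMT2 had no read. Whether reads of EHMT2 were lost for this reason was not tested. The ratio of KMT2A to KMT2B was 5.59 and 2.62 in DMSO and 3.64 and 3.56 in RAME, and that of KDM2A to KDM2B also overlapped.

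**Figure D5:**
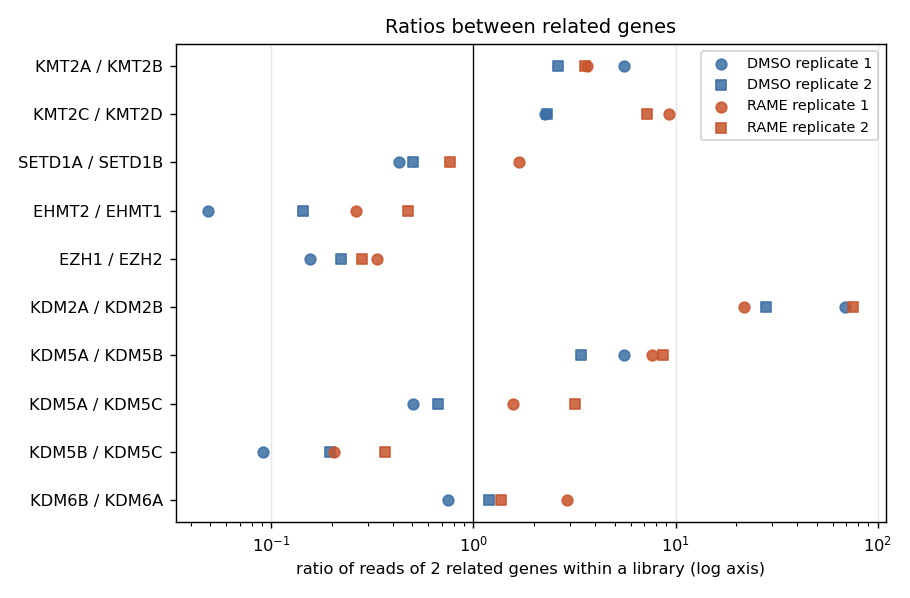
Ratio of the reads of 2 related genes within each library (logarithmic x axis) for 10 pairs, in the 2 DMSO libraries (blue) and the 2 RAME libraries (orange). The ratio of KMT2C to KMT2D lies near 2.26 to 2.31 in DMSO and at 7.22 and 9.27 in RAME, and the ratios of KMT2A to KMT2B and of KDM2A to KDM2B overlap.

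Of the 17 rows that were not tested, 3 had reads. KDM4C had 1 and 3 reads under DMSO and 1 and 1 under RAME, a ratio of CPM of 0.753 with an exact 95% interval of 0.0681 to 5.26. SETD6, whose product methylates a subunit of NF-κB, had 3 and 0 reads against 0 and 1 (ratio 0.502, exact 95% interval 0.00957 to 6.25). The antisense RNA KMT2E-AS1 had 0 and 2 reads against 0 and 0. KDM1B, KDM4B, KDM4D, KDM4E, KDM8, SETD4, SETD9 and KDM4A-AS1 had 0 reads in all 4 libraries. A count of 0 allows up to 3 reads, or 0.372 CPM over the 4 libraries together. Intervals and floors cover counting error only. For these genes a difference was not detectable in these counts. Whether reads of the rows at 0 were lost or counted elsewhere was not tested.

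The partners of these enzymes were taken from lists of genes by function. Of 9 tested subunits of Polycomb repressive complex 2, 1 was higher and 1 was lower (22.2% called, against 13.5% of all tested genes). JARID2, which helps to recruit the complex, had 207 and 286 reads against 375 and 530 (log2FC 1.56, SE 0.31, edgeR adjusted p = 0.0114), and its call held without any 1 library. RBBP7, a histone-binding subunit, had 4018 and 2863 reads against 666 and 1150 (−1.27, SE 0.31, edgeR adjusted p = 0.0236). Its call was lost without DMSO replicate 1 or RAME replicate 1, where the log2FC was −0.93 at its smallest. EED, which binds methylated H3K27, had 870 and 666 reads against 174 and 310 and a log2FC of −1.02 that did not pass (edgeR adjusted p = 0.0601).

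Of 10 tested subunits of the H3K4 methyltransferase complexes (COMPASS), 1 was higher and none was lower (10%, against 13.5% of all tested genes). This was MEN1, with 76 and 81 reads against 114 and 109 (log2FC 1.21, SE 0.36, edgeR adjusted p = 0.0487). It encodes menin, which binds the products of KMT2A and KMT2B. Its call was lost with RLE or library size scaling, with no filter, in DESeq2, in limma-voom and without each of the 4 libraries in turn. NCOA6 and WDR82 had the most reads, with log2FCs of −0.15 and −0.35. Of 7 tested methyltransferases outside the naming rule, 1 was lower and none was higher (14.3%, against 13.5% of all tested genes). MECOM, a zinc finger factor with a PR domain amplified in ovarian cancer, had 289 and 234 reads against 46 and 59 (−1.64, SE 0.35, edgeR adjusted p = 0.0145), and its call held without any 1 library. ASH1L, an H3K36 methyltransferase, did not pass (−0.96, edgeR adjusted p = 0.0639). Of 10 tested JmjC relatives and LSD1 partners 0 passed in edgeR (against 13.5% of all tested genes), 0 in DESeq2 and 0 in limma-voom. An unadjusted p under 0.05 in edgeR was found for 3 of these 10, against 31.3% of all tested genes. HIF1AN and PHF21A had the most reads, with log2FCs of −0.10 and 0.57.

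Of 23 tested genes listed as readers of methylated lysines, 2 were higher and 1 was lower (13%, against 13.5% of all tested genes). Binding by their products was not tested. ING4 had 4 and 11 reads against 29 and 38 (log2FC 2.83, edgeR adjusted p = 0.0166) and PHF13 53 and 71 against 121 and 97 (1.53, adjusted p = 0.0291). ING3, a subunit of the NuA4 acetyltransferase complex, had 2838 and 2050 reads against 492 and 981 (−1.09, edgeR adjusted p = 0.0489). The calls of PHF13 and ING3 were lost without DMSO replicate 1 and without RAME replicate 1, and that of ING3 also with upper quartile scaling and in limma-voom. Over these 5 lists and those of remodelers, arginine methyltransferases and cofactor enzymes, 13 of 103 tested genes passed (12.6%), near the 13.5% of all genes. In edgeR 12 of the 23 readers had an unadjusted p under 0.05, against 31.3% of all tested genes. The counts were 4 of 9 Polycomb subunits, 1 of 10 COMPASS subunits and 2 of 7 other methyltransferases. They were 4 of 13 cofactor genes and 7 of 28 remodelers.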

How the data were processed

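RNA of 2 DMSO and 2 RAME samples of SKOV-3 was sequenced. The authors made QuantSeq 3′ libraries and, per the submitters' notes, aligned the reads with Bowtie2 to hg19. Not given in the sources used here are the aligner's version, the annotation, the counting tool and the strand setting. Overlapping and antisense genes may therefore share reads. Raw counts of reads per gene were deposited. Their normalized log2 values, folds and p-values were not used.

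The test was edgeR 4.0.16 under R 4.3.3 (filterByExpr with min.count 10 and min.total.count 15, TMM, robust quasi-likelihood fit, RAME against DMSO, Benjamini-Hochberg over 4517 genes). The standard error is the absolute log2 fold change over the root of F, and CPM are TMM-normalized. Only the CPM of the markers, and the ratios and floor of the rows not tested, were scaled to total reads alone. The biological coefficient of variation was 29.9%. No family gene shared its counts with a neighbouring row. Reads of the 2 libraries of a group differed beyond sampling noise (chi-square per degree of freedom 28.8 and 15.4). Scripts were tested on simulated counts. Every family gene is named, with full statistics for called genes and the 10 with the most reads, and of the lists each called gene or else the 2 with the most reads. Members and lists were chosen with earlier results of these data known. Alternatives were other scalings, no filter, DESeq2 1.42.0, limma-voom (limma 3.58.1), the replicate block and leaving out each library.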

Additional observations from a re-analysis of the deposited data

How the results depend on the processing

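Among 324 re-estimates of the log2 fold changes of the 27 genes, 4 reversed sign, each without 1 library and none of a gene that had passed. Without 1 library EHMT2 ranged from −0.39 to 1.20, KDM2B from −0.60 to 1.72, KMT2B from −0.72 to 0.29 and SETD5 from −0.011 to 0.39. The 612 genes called over all genes (292 higher, 320 lower) ranged from 323 to 857 without 1 library, and the 3 family genes from 0 to 4. The replicate number as a block gave 437 genes, 0 family genes and 6 of the 13 called partner genes. The deviations of same-numbered libraries from their group means correlated at −0.34, so the numbers were not taken as pairs, and a crossed block, added after the data were seen, gave 1787, 14 and 42. The partner calls were 8 in limma-voom and ranged from 5 to 20 without 1 library. The family median of −0.21 was −0.33 with no filter, −0.10 with upper quartile scaling, and from −0.28 to 0.29 without 1 library. Upper quartile scaling shifted the median of all genes by 0.11 and the share of calls that were higher from 47.7% to 59.3%, with the same 2 higher and 1 lower family genes. limma-voom called 185 genes lower and no filter 481. EHMT1 was not called in limma-voom. The causes were not tested. At this depth the standard errors of the 27 genes ran from 0.29 to 0.87, so changes under 2-fold were seldom detectable.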

Other observations

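The enzymes that supply the substrates of histone methylation and demethylation were read from the same fit. Of 13 tested genes of the methyl donor and 2-oxoglutarate list, 2 were higher with RAME and none was lower. This was 15.4% of the list, against 13.5% of all tested genes. MAT2A, which encodes the enzyme that makes S-adenosylmethionine in most cells, had 284 and 398 reads under DMSO and 738 and 1507 under RAME (log2 fold change, log2FC, 2.37, SE 0.34, edgeR adjusted p = 0.0028), and its call held without any 1 library and in all other settings run. GLUD1, which encodes a mitochondrial enzyme that makes 2-oxoglutarate from glutamate, had 8 and 14 reads against 25 and 29 (1.98, edgeR adjusted p = 0.0469). DMSO replicate 1 and both RAME libraries were each needed for the call, which was also lost with RLE or library size scaling, with no filter, in DESeq2 and in limma-voom, and over all libraries left out in turn the log2FC ranged from 1.69 to 2.36. SHMT2 and AHCYL1 had the most reads, with log2FCs of 0.03 and −0.48.

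Of 28 tested chromatin remodeler genes (of the SWI/SNF, ISWI, CHD and INO80 families), 1 was higher and 3 were lower, with a median log2FC of 0.04. This was 14.3% of the list, near the 13.5% of all tested genes. ARID1A, a SWI/SNF subunit often mutated in ovarian clear cell carcinoma, had 1143 and 1165 reads against 148 and 248 (log2FC −1.88, SE 0.31, edgeR adjusted p = 0.00567), and its call held without any 1 library. SMARCA1 (−2.33), an ISWI ATPase, and ARID1B (−1.42) were also lower, and SMARCC1 (1.45) was higher. The calls of all of these but ARID1A were lost without DMSO replicate 1, and those of ARID1B and SMARCC1 also without RAME replicate 1, and that of ARID1B without RAME replicate 2. In limma-voom ARID1B and SMARCC1 were not called, nor was ARID1B with upper quartile scaling or SMARCC1 with library size scaling. Of 3 tested genes of the arginine methyltransferase list 0 passed in edgeR, DESeq2 or limma-voom, against 13.5% of all tested genes in edgeR. An unadjusted p under 0.05 in edgeR was found for 0 of them, against 31.3% of all tested genes. PRMT1 and FBXO11, by its symbol an F-box gene, had the most reads, with log2FCs of −0.02 and −0.34.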
